A study of Mus musculus with 22 samples.

Results

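The left ventricle (LV) of neonatal mice was examined after the pulmonary artery, the outlet of the other ventricle, had been narrowed. The members were all genes with a mean of at least 10 normalised counts over the 11 LV libraries, 13528 of the 49671 genes in the LV table, and these libraries made up 11 of the 22 in the series. The mice were CD1, an outbred stock, and the labels name no engineered allele. In 6 of them neonatal pulmonary artery banding (nPAB) was performed on postnatal day 1 with a 30G needle as the gauge, and 5 Sham-operated mice served as controls. Hearts were taken 7 days after surgery, and bulk RNA was sequenced from the LV and the right ventricle (RV) of every mouse, all with batch label 1. The band raises the pressure against which the RV pumps, so the comparison asked what changes in the ventricle that is not itself banded. The labels give neither the litters nor the hour of harvest.

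The LV libraries held 7.9 to 11.3 M reads in nPAB and 7.11 to 8.8 M in Sham, with means of 9.73 ± 1.22 M (SD, n = 6) and 8.1 ± 0.64 M (n = 5); the part of this gap in the changes was not tested. By the Y-linked gene Ddx3y, 3 nPAB and 3 Sham LV libraries were male, and 3 nPAB and 2 Sham LV libraries female. In nPAB mice 6 and 7 the LV and RV libraries were of opposite sex, so at least 1 library of each pair does not belong to the labelled mouse or ventricle; which one was not tested, and counts are also given without these 2 mice. Markers of heart muscle were abundant in every LV library, with summed levels of 10 cardiomyocyte markers of 903100 to 1040000 in Sham and 899600 to 1163000 in nPAB. Of 6 LV chamber markers tested 0 rose and 1 fell, Gja1 (16.7% called, 9.31% over all genes). In this list 5 lay below 0, with a median log2 fold change of -0.43. The phospholamban gene Pln did not pass the test (log2 fold change -0.32, adjusted p = 0.0818), and Hand1 lay below the level filter. Of 6 RV chamber markers tested 0 rose and 1 fell (16.7% called), with a median of -0.12. Normalised counts are read counts divided by a library factor; all fold changes are log2, nPAB minus Sham, of the normalised count plus 1, with adjusted p from limma with Benjamini-Hochberg adjustment over all 13528 genes. A gene is said to rise or fall where the adjusted p was under 0.05. In bulk tissue, fewer cells of a type and less RNA per cell cannot be told apart.

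The heart after birth turns from glucose and lactate to fatty acids as its fuel, a change driven by nuclear receptors of the PPAR family and opposed by the hypoxia pathway. The circadian clock of each cell is a loop in which the activators CLOCK and BMAL1 switch on Per, Cry and other repressors, which then switch the activators off. Glucocorticoids, the hormones of the adrenal cortex, induce Per1 and a broad set of other genes directly, and stretched heart muscle is known to induce the natriuretic peptides and fetal forms of muscle proteins.

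In the LV, 1260 genes were called, 9.31% of those tested: 644 rose (4.76%) and 616 fell (4.55%). By at least 2-fold, 147 rose (1.09%) and 105 fell (0.776%). The median log2 fold change over all tested genes was -0.01. The 6 nPAB libraries did not overlap the 5 Sham libraries for 884 genes (6.53%), lying above them for 457 (3.38%) and below them for 427 (3.16%), and 726 genes (5.37%) were also called. Without nPAB mice 6 and 7, 350 genes rose and 318 fell.

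**Figure D1:**
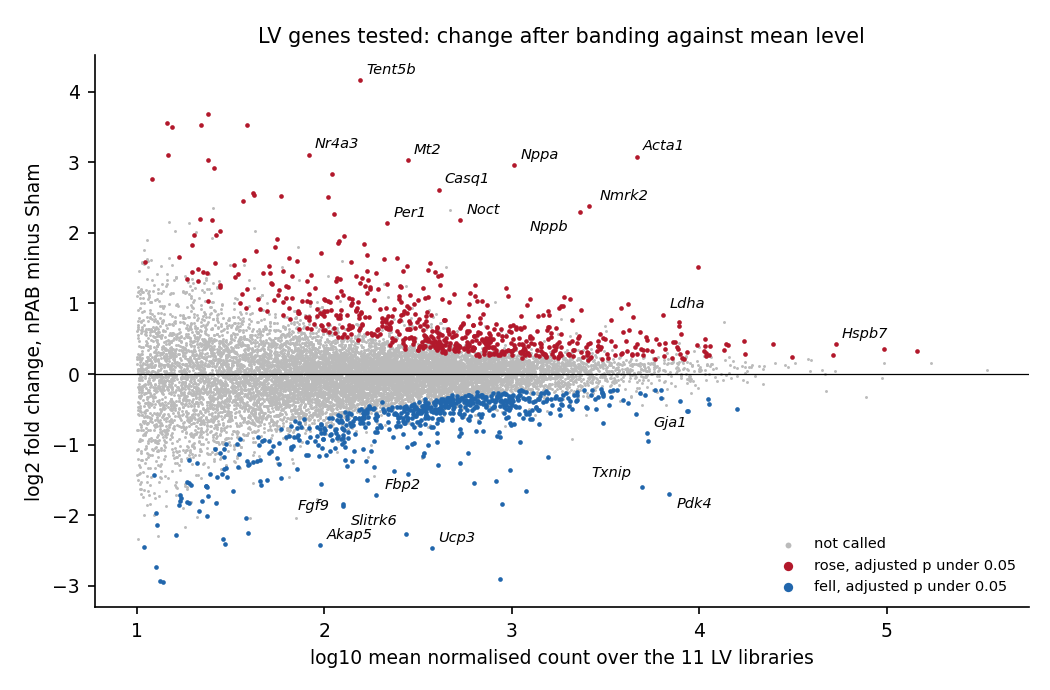
Each point is 1 of the 13528 tested genes, with its mean normalised count over the 11 LV libraries on a log10 axis and its log2 fold change, nPAB minus Sham, on the vertical axis; red marks genes that rose and blue genes that fell at an adjusted p under 0.05. The 644 called genes above and 616 below 0 spread over a wide range of levels, with Tent5b (4.16) among the highest and Ucp3 (-2.46) among the lowest.

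Promoter stretches are printed for Per1, Mt2 and Hmgcs1, since these genes rose and their windows hold a match to a clock, metal or sterol motif; they were chosen after the matches were seen. The windows are the 250 bases before each RefSeq start site (build GRCm38.p6), searched on both strands. The E-box CACGTG, the site of CLOCK and BMAL1, is in 6.41% of the 20595 windows and in 8.52% of those of tested genes. The core of the metal response element, TGCACNC or TGCGCNC, is in 23.1% of all windows and in 31% of those of tested genes. The sterol element TCACNCCAC is in 1.06% and 0.917%. Capitals mark the match, and none of these matches overlaps a match of another searched motif.
Per1, chr11:69098738-69098833, plus strand: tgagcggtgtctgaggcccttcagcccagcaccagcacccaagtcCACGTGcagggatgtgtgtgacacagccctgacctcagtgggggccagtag
Mt2, chr8:94172368-94172617, plus strand: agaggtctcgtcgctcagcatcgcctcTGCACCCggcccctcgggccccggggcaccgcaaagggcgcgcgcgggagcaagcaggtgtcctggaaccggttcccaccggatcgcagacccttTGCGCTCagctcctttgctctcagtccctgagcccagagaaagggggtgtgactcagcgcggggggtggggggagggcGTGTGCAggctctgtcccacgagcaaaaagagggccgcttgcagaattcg
Hmgcs1, chr13:119690169-119690267, plus strand: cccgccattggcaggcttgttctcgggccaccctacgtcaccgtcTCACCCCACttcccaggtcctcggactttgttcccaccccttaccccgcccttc
In Per1 the E-box begins 166 bases before a start site that lies inside the gene, 3732 bases from the 5′ end in GENCODE. Mt2 holds 3 metal cores, 223 to 50 bases before its start. The sterol element of Hmgcs1 begins 137 bases before the start. Of the 7 clock repressors with a window, Per1, Cry1 and Bhlhe41 held the E-box, and of 15 cholesterol genes only Hmgcs1 held the sterol element in these letters, so that Cyp51 did not. The window of Noct held neither the E-box nor the cAMP element TGACGTCA, and those of Per1, Nr4a1 (12577 bases from its 5′ end in GENCODE) and Nr4a3 held no cAMP element either. The cAMP element is in 1.91% of all windows and in 2.77% of those of tested genes. The palindromic glucocorticoid element (0.369% and 0.262%) was in 1 of 24 glucocorticoid-responsive genes, Mt1. The NR4A site AAAGGTCA (1.19% and 0.776%) was in 0 of these 24 and in 0 of 19 immediate early genes. A match is a description of the letters and not of binding.

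Noct and Per1 rose and Pdk4 fell. Noct (chr3:51224447-51251644, plus strand) encodes nocturnin, a phosphatase of NADPH whose level follows the clock. It stood at 176, 188, 189.8, 148 and 183 normalised counts in Sham mice 9, 10, 11, 12 and 13, the order used throughout, and at 542 to 1134 with a median of 846 in nPAB. Every nPAB library lay above every Sham library, and the rise of 2.18 ± 0.15 SE had the smallest adjusted p of all genes (2.23e-07). Per1 (chr11:69095217-69109960, plus strand), a repressor of the clock loop, stood at 106, 53.1, 85.3, 75.3 and 61.4 in Sham and at 279 to 406 with a median of 322 in nPAB. The lowest nPAB library was above the highest Sham library by a wide margin (2.14 ± 0.17 SE, adjusted p = 9.79e-07). Pdk4 (chr6:5483351-5496309, minus strand) encodes the kinase that switches off pyruvate dehydrogenase and so keeps glucose carbon from being burnt. Sham libraries held 11548, 10408, 11362, 11750.0 and 9674 normalised counts and nPAB libraries 2508 to 4216 with a median of 3609. All nPAB libraries were lower, by 1.69 ± 0.14 SE on the log2 scale (adjusted p = 1.21e-05), and the Sham values were close together. All 3 calls held when any 1 mouse was left out.

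**Figure D2:**
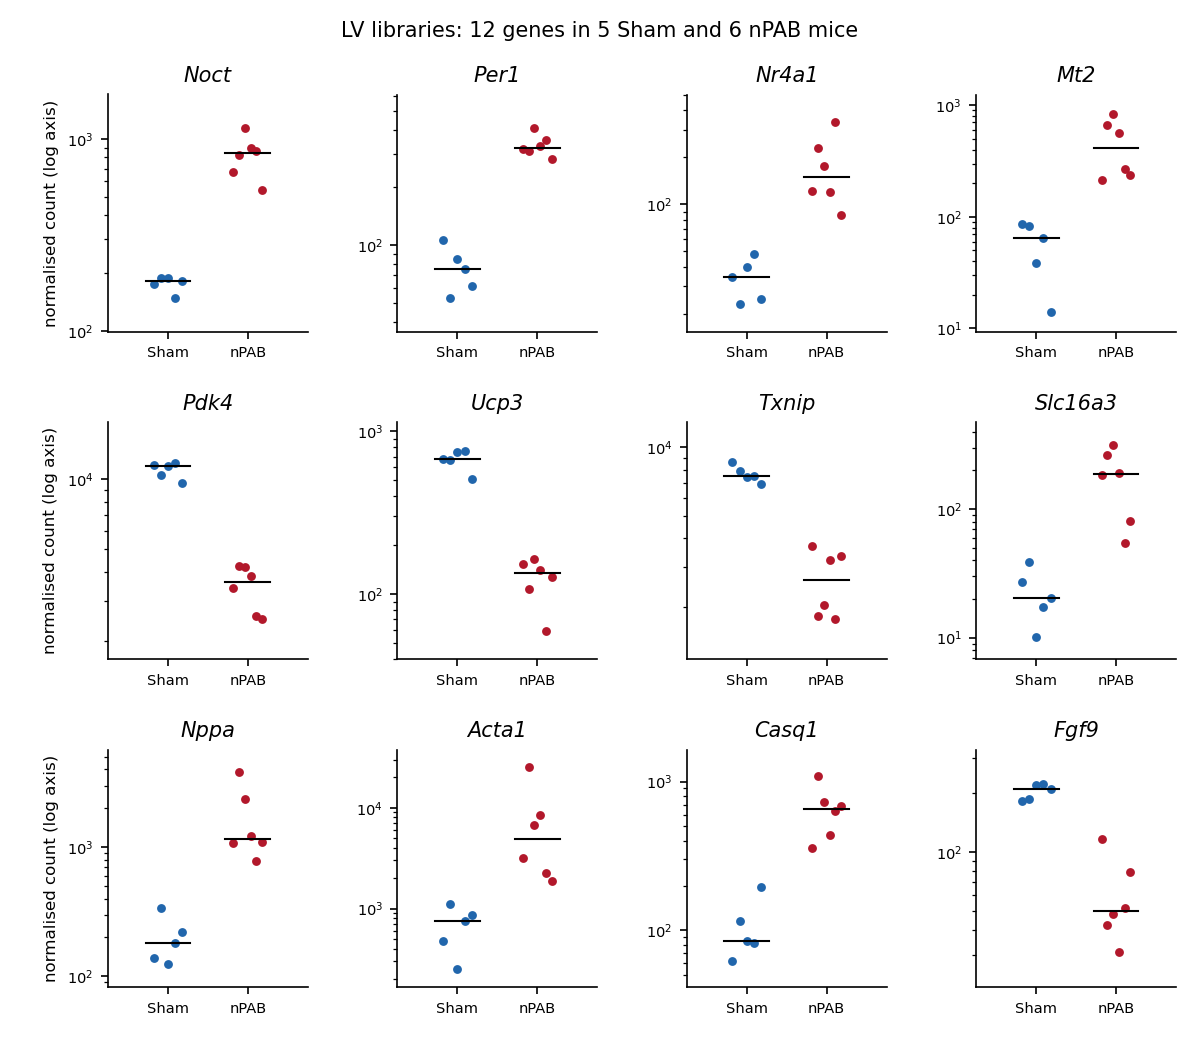
Each point is 1 LV library and each bar the median of its group (5 Sham, 6 nPAB), in normalised counts on a log axis. The groups do not overlap for any of the 12 genes shown, and Acta1 spread most within nPAB, from 1859 to 25090.

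Per2 and Bhlhe40, clock repressors like Per1, rose as well. Of 9 repressors tested 3 rose, these and Per1, and 0 fell (33.3% called, 9.31% over all genes). The other 6 were not called, and the median log2 fold change was 0.02. Bhlhe40 (DEC1), a repressor that also answers to hypoxia, stood at 233, 225, 207, 274 and 224 in Sham and 411 to 777 with a median of 566 in nPAB. The groups were apart (1.26, adjusted p = 5.03e-05). Per2 stood at 159.7, 76.1, 67.0, 86.1 and 31.2 in Sham and 136 to 259.7 with a median of 193 in nPAB, so that Sham mouse 9 overlapped the nPAB range (1.39, adjusted p = 0.0132). Rev-erb alpha (Nr1d1) was at 0.43 and did not pass (adjusted p = 0.142). Of 10 activators and kinases, 0 rose and 1 fell, a share near the 9.31% called over all genes, and the 2 lists were not tested against each other. The count that fell was 2 without Sham mouse 11, Sham mouse 13 or nPAB mouse 11. Clock itself was at -0.22 (adjusted p = 0.112). Among 12 output genes, Noct, the mitotic kinase Wee1 (0.85, adjusted p = 0.000907) and the deubiquitinase Usp2 (0.84, adjusted p = 0.000731) rose, while the repressor Klf10 fell (-0.57, adjusted p = 0.0175). Called members were 33.3% of these 12. Klf10 missed the threshold without Sham mouse 9 (adjusted p = 0.0501) and without nPAB mice 6 and 7 (0.0641). Without nPAB mice 6 and 7, 2 repressors and 3 output genes rose, 0 output genes fell, and Per2 was at an adjusted p of 0.0508.

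Of 27 tested genes that answer to glucocorticoids, 16 rose and 2 fell (66.7% called, 9.31% over all genes). Their median log2 fold change was 0.76 against -0.01 over all genes, and 11 showed no overlap (6.53% over all genes). Without nPAB mice 6 and 7, 11 rose and 1 fell. Sgk1, a kinase that acts on ion transport, stood at 217, 159, 214, 243 and 234 in Sham and 483 to 654 with a median of 530.2 in nPAB. Every nPAB library was above every Sham library (1.39 ± 0.12 SE, adjusted p = 2.31e-06). The same separation held for the transcription factor genes Klf9 (0.71, adjusted p = 0.000114), Klf15 (1.20, adjusted p = 0.0011) and Cebpd (1.58, adjusted p = 0.000249). It held as well for the mTOR inhibitor Ddit4 (1.44, adjusted p = 0.00177), the actin-binding Fam107a (2.51, adjusted p = 0.00189) and the cyclin kinase inhibitor Cdkn1a (0.96, adjusted p = 0.00618). Cebpb (1.74, adjusted p = 0.00438), Tsc22d3, known as GILZ (0.61, adjusted p = 0.00733), and the receptor chaperone Fkbp5 (1.53, adjusted p = 0.0201) rose with some overlap. Fkbp5 missed the threshold without mice 6 and 7 (adjusted p = 0.0643). Falling members were Pdk4, described above, and Angptl4, an inhibitor of lipoprotein lipase (-1.84, adjusted p = 0.0106, and 0.0623 without mice 6 and 7). Both are also PPAR targets.

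The main receptors of these hormones fell. Nr3c1, the glucocorticoid receptor, stood at 1805, 1988, 1911, 1779.7 and 2041 in Sham and 1343 to 1556 with a median of 1369 in nPAB. The 2 groups did not overlap, although the change was small (0.43 ± 0.07 SE lower on the log2 scale, adjusted p = 0.000886). Nr3c2, the mineralocorticoid receptor, fell by 0.78 (adjusted p = 0.0376) with overlap. This call was lost without nPAB mice 6 and 7 (adjusted p = 0.164), and on leaving out any 1 of Sham mice 9, 10, 11 and 13 and nPAB mice 5, 6, 7 and 8 (adjusted p up to 0.106).

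Metallothioneins bind zinc and copper and are induced by metals and by glucocorticoids. Mt2 stood at 85.7, 83.3, 38.6, 64.6 and 14.0 in Sham and 212 to 831 with a median of 417 in nPAB. All nPAB libraries were higher, with a wide spread in both groups (3.03 ± 0.55 SE, adjusted p = 0.0083). Mt1, a close copy whose reads may be shared with Mt2, was at 1.07 (adjusted p = 0.0348). Its call was lost on leaving out any 1 of Sham mice 10 to 13 and nPAB mice 6, 7, 8 and 11 (adjusted p up to 0.075), and without mice 6 and 7 together (0.114). The zinc importer Slc39a14 rose by 0.71 (adjusted p = 0.00748, and 0.0538 without mice 6 and 7). Of 11 genes of this list 3 rose and 1 fell (36.4% called, 9.31% over all genes), and 1 rose without mice 6 and 7. On leaving out any 1 of Sham mice 11, 12 and 13 and nPAB mice 6, 7 and 8, 2 were called.

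Called genes of fat use all fell. Of 23 PPAR targets tested, 0 rose and 9 fell (39.1% called, 9.31% over all genes). Of 30 fatty acid oxidation genes 0 rose and 7 fell (23.3% called), with 24 of the 30 below 0 and a median log2 fold change of -0.21. Ucp3, a mitochondrial carrier induced by fatty acids, stood at 674, 662, 749, 759.7 and 507 in Sham and 59.6 to 165 with a median of 134 in nPAB. The highest nPAB library was well under the lowest Sham library (-2.46 ± 0.21 SE, adjusted p = 1.21e-05). Acot1, a thioesterase that frees fatty acids from coenzyme A, fell by 1.51 (adjusted p = 0.000721). Plin2, the coat protein of lipid droplets, fell by 0.55 (adjusted p = 0.00175), and both genes had no overlap. Of the enzymes of the beta-oxidation spiral, Hadha fell by 0.43 (adjusted p = 0.00665) and Decr1 by 0.50 (adjusted p = 0.00666). Mlycd, which degrades malonyl-CoA and so frees the entry of fatty acids into mitochondria, fell by 0.61 (adjusted p = 0.0161, and 0.0776 without mice 6 and 7). The entry enzyme Cpt1a stood at 687, 707, 781, 821 and 764 in Sham and 336 to 684 with a median of 617 in nPAB. It did not pass although no nPAB library reached the Sham range (-0.41, adjusted p = 0.0958). The regulator Ppargc1a was at -0.25 (adjusted p = 0.109). Without mice 6 and 7, 5 PPAR targets and 3 oxidation genes fell, and without nPAB mouse 11 alone 14 oxidation genes fell. The desaturase Scd4 was the only one of 15 fatty acid synthesis genes that fell (-2.27, adjusted p = 0.009), with nPAB mouse 5 far above the other nPAB libraries. In this list 6.7% were called, under the 9.31% over all genes. Without Sham mouse 12, 1 other gene rose, and 2 rose without nPAB mouse 10.

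Called genes of glycolysis all rose. Of 25 glycolysis genes 15 rose and 0 fell (60% called, 9.31% over all genes). No overlap was seen for 13 (6.53% over all genes), and the median log2 fold change was 0.48. Without mice 6 and 7, 14 rose and 0 fell. Ldha, the lactate dehydrogenase subunit that favours lactate formation, stood at 4358, 4403, 4558, 4457 and 4532 in Sham and 7052 to 9124 with a median of 8103 in nPAB. Sham libraries were close together, and every nPAB library was far above them (0.84 ± 0.07 SE, adjusted p = 2.31e-06). Slc16a3, the lactate exporter MCT4, stood at 27.3, 38.7, 10.2, 17.2 and 20.5 in Sham and 54.8 to 317 with a median of 187 in nPAB. It was low in Sham and higher in all nPAB libraries, over a broad range (2.83 ± 0.45 SE, adjusted p = 0.00152). The glucose transporter Slc2a1 (GLUT1) rose by 1.23 (adjusted p = 0.000242), and the enzymes Gapdh by 0.68 (2.51e-05), Pgk1 by 0.79 (8.79e-05), Pkm by 0.60 (0.000146), Pfkp by 0.83 (0.00775) and Pgam2 by 0.44 (0.000993), each with its adjusted p in parentheses. None of these overlapped between groups.

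A pair of genes that hold glucose use back fell. Fbp2, the muscle fructose bisphosphatase that opposes glycolysis, stood at 275, 221, 375, 285 and 348 in Sham and 51.9 to 143 with a median of 91.7 in nPAB. The groups were apart (-1.72 ± 0.23 SE, adjusted p = 0.000249). Txnip, which limits glucose uptake and is itself induced by glucose, stood at 8616, 7907, 7426, 7516 and 6876 in Sham and 1759.8 to 3701 with a median of 2607 in nPAB. Again no nPAB library reached the lowest Sham library (-1.60 ± 0.21 SE, adjusted p = 0.00101). At the pyruvate dehydrogenase step, the kinase Pdk3 rose (0.78, adjusted p = 0.00425) while Pdk4 fell. The pyruvate carrier Mpc1 was at 0.37 (adjusted p = 0.0384); its call was lost without any 1 of Sham mice 9, 10, 11 and 13 and nPAB mice 6, 10 and 11 (adjusted p up to 0.106), and without mice 6 and 7 together (0.0669).

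Of 26 hypoxia-responsive genes 12 rose and 1 fell, several of them shared with glycolysis (50% called, 9.31% over all genes). Without mice 6 and 7, 10 rose and 0 fell. Hif1a, an oxygen-regulated factor, rose slightly (0.44, adjusted p = 0.00626), while the member that fell was Epas1, another such factor. The mitophagy receptor Bnip3 rose by 1.14 (adjusted p = 0.00062) and the oxygen sensor Egln3 by 1.08 (adjusted p = 0.00849). Oxct1, the enzyme with which the heart burns ketone bodies, stood at 2345, 2788, 2978, 2134 and 2484 in Sham and 3756 to 6054 with a median of 4831 in nPAB. It was higher in all nPAB libraries (0.93 ± 0.11 SE, adjusted p = 5.75e-05). Slc16a1 (MCT1), which carries lactate and ketone bodies, rose by 0.61 (adjusted p = 0.000282).

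Of 44 respiratory chain subunits 4 rose and 0 fell, and 37 lay above 0 (median log2 fold change 0.12). The 9.1% called was near the 9.31% over all tested genes. The cytochrome oxidase subunits Cox6a1 (0.50, adjusted p = 0.0016) and Cox8a (0.38, adjusted p = 0.00373) were among the 4. On leaving out any 1 of Sham mice 10, 11 and 12, 2 rose.

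**Figure D3:**
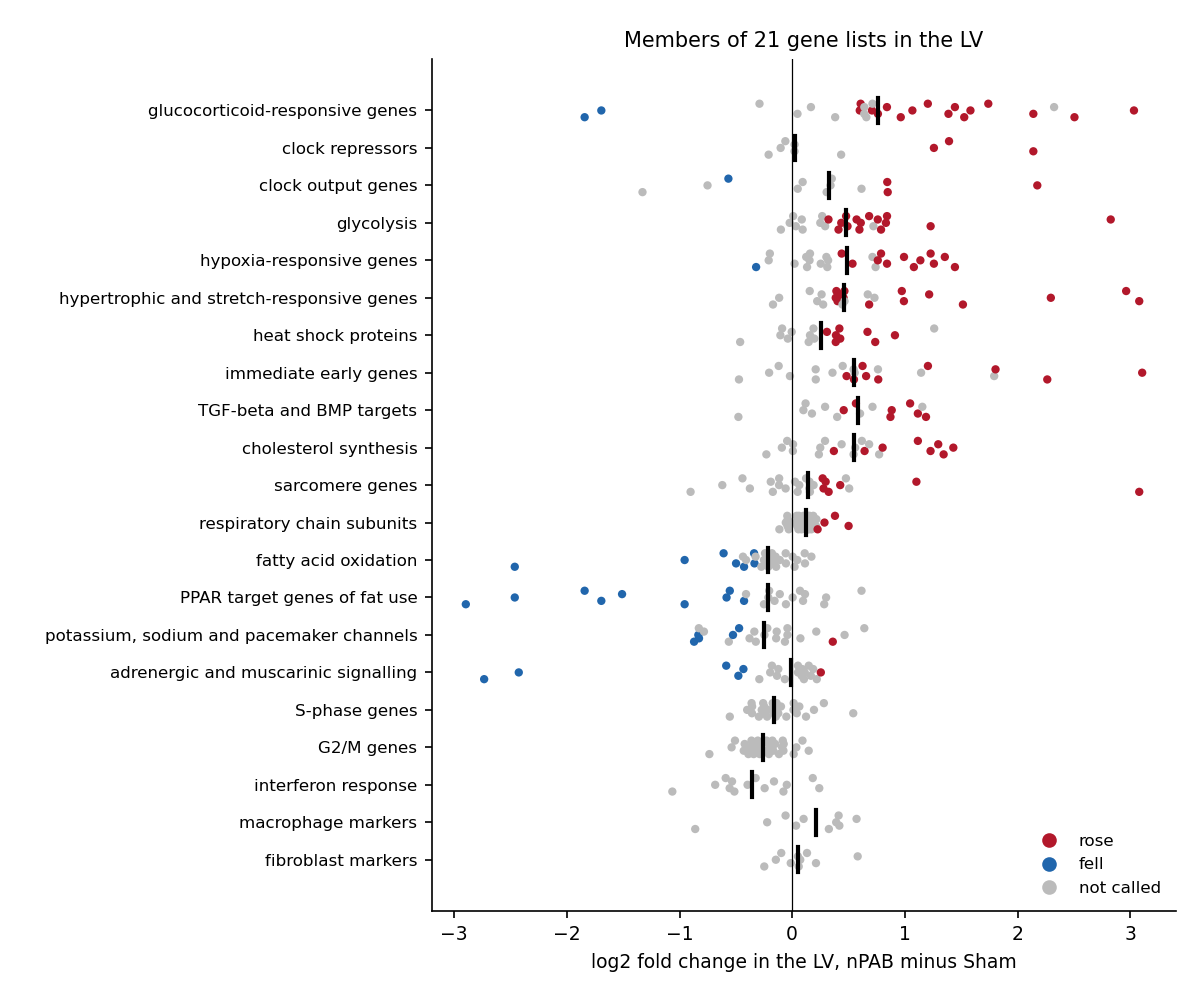
Each point is a tested member of 1 of 21 gene lists, placed by its log2 fold change in the LV, nPAB minus Sham; red members rose, blue members fell, grey members were not called, and the black bar is the median of the list. Glucocorticoid-responsive genes (median 0.76), glycolysis (0.48) and TGF-beta and BMP targets (0.58) lie to the right of 0, and the 2 fat-use lists (-0.21 each) to the left.

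Called load genes of heart muscle all rose in the LV. Of 24 hypertrophic and stretch-responsive genes 14 rose and 0 fell (58.3% called, 9.31% over all genes). The median log2 fold change was 0.46, and 11 showed no overlap (6.53% over all genes). Without mice 6 and 7, 11 rose, and without Sham mouse 9, 9 rose. Nppa, atrial natriuretic peptide, stood at 137, 339, 124, 179.7 and 222 in Sham and 776 to 3794 with a median of 1159.8 in nPAB. Nppb, the B-type peptide, stood at 351, 523, 706, 1106 and 1118 in Sham and 2146 to 5012 with a median of 3654 in nPAB. Both were higher in every nPAB library than in any Sham library (2.96 ± 0.44 SE, adjusted p = 0.00373, and 2.30 ± 0.36 SE, adjusted p = 0.00496). Furin, a protease that processes the precursor of Nppb, was at 0.41 (adjusted p = 0.0226), and its call was lost without Sham mouse 10, Sham mouse 12 or nPAB mouse 7 (adjusted p up to 0.0625) or mice 6 and 7 together (0.119). Nppa, Nppb and Furin were the called members among 9 tested genes of the natriuretic peptide system (33.3% called, 9.31% over all genes). The other 6 lay below 0 and were not called, and the median log2 fold change of the list was -0.2. Clu, clusterin, counted here among atrial markers, rose by 1.22 (adjusted p = 0.00063).

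Acta1, the skeletal alpha-actin that the fetal heart also makes, stood at 472, 1100.4, 251, 748 and 862 in Sham and 1859 to 25090.3 with a median of 4946 in nPAB. Groups did not overlap, but the highest nPAB library, mouse 6, was far from the others (3.08 ± 0.71 SE, adjusted p = 0.0281). Fetal heart muscle genes that fall after birth did not rise as a list. Of 24 tested, Acta1, Ckb, Slc2a1 and Pkm rose and Ccnd2 and Igf2 fell (25% called, 9.31% over all genes). Their median log2 fold change was -0.22, with 14 below 0. Without nPAB mice 6 and 7, 3 rose and 2 fell. Xirp2, which binds actin at the intercalated disc, stood at 5002, 5892, 2913, 3939 and 5089 in Sham and 6919 to 30867 with a median of 12493 in nPAB (1.52 ± 0.36 SE, adjusted p = 0.0306). Mouse 6 was again the highest library. The Acta1 call was lost on leaving out any 1 of Sham mice 9, 11 and 12 and nPAB mice 7 and 8 (adjusted p up to 0.067), and without mice 6 and 7 together (0.0684). For Xirp2 the same held for Sham mice 9, 11, 12 and 13 and nPAB mice 7, 8 and 10 (adjusted p up to 0.0729). Calls that held when any 1 mouse was left out were those of the LIM-domain genes Fhl1 (0.99, adjusted p = 7.23e-05) and Csrp3 (0.46, adjusted p = 0.000784), the Z-disc protein gene Pdlim3 (1.03, adjusted p = 1.21e-05) and the TWEAK receptor Tnfrsf12a (1.22, adjusted p = 0.000244).

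Of 26 sarcomere genes 7 rose and 0 fell (26.9% called, 9.31% over all genes), and 4 rose without Sham mouse 9 or without Sham mouse 12. Troponin C (Tnnc1) rose by 0.43 (adjusted p = 0.00304), beta-tropomyosin (Tpm2), the form of slow muscle, by 1.10 (adjusted p = 0.0133), and alpha-actinin (Actn2) by 0.28 (adjusted p = 0.00665). The cardiac myosin gene Myh6 was at -0.06 and did not pass (adjusted p = 0.747). Casq1, the calcium store protein of fast skeletal muscle, stood at 62.3, 115, 85.3, 81.8 and 197 in Sham and 358 to 1093 with a median of 659 in nPAB. The groups were well apart (2.61 ± 0.33 SE, adjusted p = 0.000731). Nmrk2, a kinase that makes NAD precursors and is induced in the stressed heart, stood at 319, 618, 725, 782 and 1411 in Sham and 1525 to 7006 with a median of 4364 in nPAB. Each nPAB library exceeded each Sham library, though Sham mouse 13 came close (2.38 ± 0.49 SE, adjusted p = 0.0173, and 0.0775 without mice 6 and 7).

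Tent5b, a poly(A) polymerase that lengthens RNA tails, stood at 19.5, 21.7, 5.08, 20.4 and 9.69 in Sham and 126 to 315 with a median of 296 in nPAB. It was near the level filter in Sham and high in every nPAB library, and its rise of 4.16 ± 0.34 SE was the largest of all called genes whose groups were apart and whose mean reached 50 (adjusted p = 2.31e-06). Heat shock proteins keep muscle filaments folded, and of 18 tested 8 rose and 0 fell (44.4% called, 9.31% over all genes). Among them, alpha B-crystallin (Cryab) rose by 0.42 (adjusted p = 0.000518), Hspb6 by 0.74 (adjusted p = 0.00281), Hspb7 by 0.43 (adjusted p = 0.00471) and Hspb8 by 0.67 (adjusted p = 0.00911). The count was 4 without Sham mouse 9, Sham mouse 12 or nPAB mice 6 and 7, and 5 without Sham mouse 10 or nPAB mouse 7.

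Most called genes of electrical coupling fell. Gja1, connexin 43 of the gap junctions, stood at 6562, 7024, 7146, 7189.9 and 6475 in Sham and 3221 to 4791 with a median of 3648 in nPAB. No nPAB library reached the Sham range (-0.83 ± 0.10 SE, adjusted p = 5.03e-05). Of 23 channel genes 1 rose and 5 fell (26.1% called, 9.31% over all genes). Abcc9, a subunit of the ATP-sensitive potassium channel, fell by 0.53 (adjusted p = 0.00496), Kcnj5, a channel opened by acetylcholine, by 0.83 (adjusted p = 0.0184), and Kcnj2, which sets the resting potential, by 0.87 (adjusted p = 0.0301). The Kcnj2 call was lost without any 1 of Sham mice 9 to 12 and nPAB mice 6 and 7 (adjusted p up to 0.0708), and without both of the latter (0.114). Without Sham mouse 9, 10 or 11 or nPAB mouse 6, 0 channel genes rose and 3 fell, and without mice 6 and 7 together 1 rose and 3 fell.

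Most called genes of adrenergic signalling fell as well. Akap5, which anchors kinase A near beta-adrenergic receptors, stood at 216, 204, 146, 114 and 157 in Sham and 18.1 to 85.5 with a median of 26.2 in nPAB. Its levels in nPAB were low in all libraries, with mouse 10 the highest and still under the lowest Sham value (-2.43 ± 0.32 SE, adjusted p = 0.000198). The cyclase Adcy6 fell by 0.48 (adjusted p = 0.00402) and the mitochondrial anchor Akap1 by 0.43 (adjusted p = 0.00776, and 0.0519 without mice 6 and 7). Of the alpha-adrenergic receptors, Adra1a stood at 70.1, 6.04, 13.2, 20.4 and 14.0 in Sham and 0 to 8.03 with a median of 1.64 in nPAB. The groups overlapped and Sham mouse 9 was far above the other Sham libraries (-2.73, adjusted p = 0.0196). The Adra1a call was lost without Sham mouse 12 (adjusted p = 0.0543) and without nPAB mice 6 and 7 (0.0748); without Sham mouse 9 its mean was below the level filter. Adra1b was at -0.59 (adjusted p = 0.0464), a call lost without any 1 of the 5 Sham mice or of nPAB mice 6, 8 and 10 (adjusted p up to 0.123), and without mice 6 and 7 together (0.0884). Of 22 adrenergic and muscarinic genes 1 rose and 5 fell (27.3% called, 9.31% over all genes). As a whole the list did not shift: 11 lay above 0 and 11 below, with a median log2 fold change of -0.01, as over all genes. The list had 0 rising and 3 falling without Sham mouse 12, and 0 and 2 without mice 6 and 7.

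Growth factor genes changed in both directions. Fgf9, a signal from epicardium and endocardium to growing myocardium, stood at 181, 187, 218, 222 and 209 in Sham and 30.7 to 116 with a median of 50.1 in nPAB. The Sham libraries were close to each other and above all nPAB libraries (-1.84 ± 0.26 SE, adjusted p = 0.000258). Erbb2, the coreceptor of neuregulin that supports division of neonatal heart muscle cells, stood at 238, 261, 286, 241 and 234 in Sham and 116 to 213 with a median of 150.2 in nPAB. Its fall of 0.72 had no overlap (adjusted p = 0.00451). Fgfr3, a receptor of FGF9, rose by 1.38 (adjusted p = 0.00387), and the EGF receptor ligand Hbegf by 0.83 (adjusted p = 0.0182, and 0.0696 without mice 6 and 7). Igf2, a fetal growth factor, fell by 0.38 (adjusted p = 0.00249). Of 19 genes of NRG, EGF and FGF signals 2 rose and 2 fell (21.1% called, 9.31% over all genes).

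Most called vessel genes fell. Aplnr, the apelin receptor of endothelial cells, stood at 852, 865, 942, 647 and 587 in Sham and 247 to 399 with a median of 328 in nPAB. All nPAB libraries were below all Sham libraries (-1.25 ± 0.14 SE, adjusted p = 3.7e-05). Angpt1, the ligand that stabilises vessels, fell by 1.15 (adjusted p = 0.00911) and its receptor Tek by 0.47 (adjusted p = 0.0136, and 0.0632 without mice 6 and 7). The semaphorin and VEGF coreceptor Nrp2 fell by 0.56 (adjusted p = 0.00277), while the VEGF receptor Flt1 rose by 0.54 (adjusted p = 0.00471). Of 18 genes of this list 1 rose and 4 fell (27.8% called, 9.31% over all genes), and without nPAB mouse 11, 2 rose and 6 fell.

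No gene of the S-phase and G2/M lists was called by limma, edgeR or DESeq2, beside 9.31% of all genes called by limma. Of 29 S-phase genes 0 rose and 0 fell, with 21 below 0 (median log2 fold change -0.16), and of 34 G2/M genes 0 rose and 0 fell, with 30 below 0 (median -0.26). At an unadjusted p under 0.05 in limma there were 1 S-phase and 0 G2/M genes, beside 3334 of all genes. Brakes of the cycle in heart muscle were called in different directions. The inhibitor Cdkn1a rose, as given among the glucocorticoid genes, whereas the inhibitor Cdkn1b stood at 491, 575, 674, 497 and 407 in Sham and 244 to 396 with a median of 356 in nPAB. It was lower in all nPAB libraries (-0.64, adjusted p = 0.0067). Meis1, which drives exit from the cycle after birth, fell by 0.69 (adjusted p = 0.00396) without overlap. Meis2 (-0.55, adjusted p = 0.0298) and cyclin D2 (Ccnd2; -0.35, adjusted p = 0.0252) fell with overlap. The Meis2 call was lost without any 1 of Sham mice 10 to 13 and nPAB mice 7, 8 and 10 (adjusted p up to 0.0898), and the Ccnd2 call without Sham mouse 10, 12 or 13 or nPAB mouse 7 (adjusted p up to 0.0788) or mice 6 and 7 together (0.119). Of 16 genes of the list 1 rose and 4 fell (31.2% called, 9.31% over all genes). Without Sham mouse 10, 12 or 13 or nPAB mouse 7, 1 rose and 2 fell.

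Among the largest falls without overlap were also Slitrk6 (-1.87, adjusted p = 0.000221), a membrane protein of the synapse, Prdm1 (-1.55, adjusted p = 0.000934), the repressor Blimp-1, and Asb15 (-1.50, adjusted p = 0.000205), a muscle gene of the SOCS box family. Slitrk6 stood at 172, 251, 205, 204 and 188 in Sham and 23.3 to 81.0 with a median of 60.4 in nPAB. Asb15 stood at 377, 240.4, 284, 256 and 156 in Sham and 67.3 to 124 with a median of 86.4 in nPAB. For both genes the Sham libraries were all higher.

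Called early response genes all rose. Of 22 immediate early genes 9 rose and 0 fell (40.9% called, 9.31% over all genes). The median log2 fold change was 0.55, and 5 rose without mice 6 and 7. Nr4a1, a nuclear receptor induced quickly by many signals, stood at 34.1, 23.0, 39.6, 48.4 and 24.8 in Sham and 85.9 to 336 with a median of 149.7 in nPAB. Its relative Nr4a3 stood at 19.5, 16.9, 24.4, 3.23 and 11.8 in Sham and 55.6 to 267 with a median of 112 in nPAB. Both were low in Sham and higher in every nPAB library (2.26 ± 0.31 SE, adjusted p = 0.000242, and 3.11 ± 0.49 SE, adjusted p = 0.00125). The transcription factors Klf4 (0.76, adjusted p = 0.000237) and Csrnp1 (1.80, adjusted p = 0.00224) and the mRNA decay factor Zfp36 (0.66, adjusted p = 0.00803) rose without overlap as well.

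Of 16 targets of TGF-beta and BMP 7 rose and 0 fell (43.8% called, 9.31% over all genes). The median log2 fold change was 0.58, and 4 rose without mice 6 and 7. Smad7, the inhibitor that both pathways induce, stood at 220.1, 205, 192, 188 and 181 in Sham and 339 to 539 with a median of 395 in nPAB. No library of the 2 groups overlapped (1.05 ± 0.13 SE, adjusted p = 0.000123). Id1, the classic BMP target, rose by 0.87 (adjusted p = 0.000886) and the secreted Fstl1 by 0.57 (adjusted p = 0.0101). Of 27 fibrillar collagen and matrix genes 6 rose and 0 fell, among them fibrillin (Fbn1; 0.47, adjusted p = 0.00102) and elastin (Eln; 0.52, adjusted p = 0.0106, and 0.0643 without mice 6 and 7). Without Sham mouse 12, 3 rose, and without mice 6 and 7, 2 rose. The basement membrane collagens Col4a1 (0.41, adjusted p = 0.00385) and Col4a2 (0.46, adjusted p = 0.000973) rose together and were 2 of the 4 genes that rose among 18 of that structure. On leaving out Sham mouse 11 or Sham mouse 12, 2 of the 18 rose. Called members were 22.2% of the matrix list and 22.2% of the basement membrane list (9.31% over all genes).

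Called genes of cholesterol synthesis, a pathway controlled by the sterol-sensed factor SREBP2, all rose. Of 22 tested 8 rose and 0 fell (36.4% called, 9.31% over all genes). In this list 19 lay above 0, the median log2 fold change was 0.55, and 7 rose without mice 6 and 7. The enzymes Msmo1 (1.23, adjusted p = 0.000623), Sqle (1.30, adjusted p = 0.00161) and Cyp51 (1.12, adjusted p = 0.00518) rose by similar amounts. Hmgcs1, whose sterol element is printed above, stood at 949, 983, 1048, 1004 and 1032 in Sham and 1152 to 1453 with a median of 1311 in nPAB. The change was small but free of overlap (0.37 ± 0.08 SE, adjusted p = 0.00648).

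Markers of other cells and of RNA quality were read beside these changes. Of 10 fibroblast, 10 macrophage, 6 endocardial, 5 neutrophil and 6 erythroid markers tested 0 rose and 0 fell in each list. In these lists 6, 7, 2, 4 and 6 members lay above 0, in the same order. None of 14 interferon or 11 antigen presentation genes was called, and 12 and 9 of them lay below 0. At 9.31% called over all genes, 0 called in lists this short does not show that a cell type was unchanged. At an unadjusted p under 0.05 in limma these 7 lists held 1, 1, 2, 2, 3, 1 and 1 genes in the order named. Over all 13528 genes tested there were 3334. By edgeR 0 were called in all, and DESeq2 called 1 endocardial marker and 0 others. Summed marker levels overlapped between groups for every list. The fibroblast sum was 50910 to 61130 in Sham and 42600 to 64420 in nPAB, and the macrophage sum 1406 to 1638 and 1254 to 2472. The LV chamber sum, led by Pln, was 88740 to 98920 in Sham and 57680 to 99960 in nPAB. In this sum 4 of the 6 nPAB libraries were at 75450 or less and only mouse 11 was above the lowest Sham library. Most of it was Pln, which was not called and stood at 81335.5 to 90910.1 in Sham and 53496.8 to 94230.1 in nPAB. Mean Sham levels of Pln were 85870 in the LV and 86309 in the RV, and of Gja1 6879 and 7542, in tables normalised separately. In the RV Pln was at -0.64 (adjusted p = 0.000185) and Gja1 at -0.85 (adjusted p = 1.28e-05). The sum is therefore not a measure particular to the LV chamber. The atrial sum was 1934 to 3099 and 2482 to 7878, led by Nppa. Of 11 atrial markers tested Nppa and Clu rose and 0 fell (18.2% called, 9.31% over all genes). In this list 7 lay below 0 and the median log2 fold change was -0.55. The atrial myosin light chain Myl7 was at -0.62 (adjusted p = 0.636). The neutrophil sum was 231.8 to 603.9 in Sham and 331.3 to 435.6 in nPAB. Skeletal muscle markers had 10 of 10 below the level filter, with Myh3, Myh4, Myod1, Myog and Pax7 at 0 in all LV libraries, and the fat cell markers Adipoq, Cidec, Lep and Retn were at 0.

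The smooth muscle and pericyte list had 2 of 10 rising and 1 falling (30% called, 9.31% over all genes). Without any 1 of Sham mice 9, 10, 12 and 13 and nPAB mice 6, 7 and 8, 0 rose and 1 fell. The nuclear RNAs Malat1 (-0.50, adjusted p = 0.0242) and Rn7sk (-0.36, adjusted p = 0.0357), read here as signs of RNA quality, fell with overlap. They were 2 of 6 such genes (33.3% called, 9.31% over all genes). The Malat1 call was lost without any 1 of Sham mice 9 to 12 and nPAB mouse 6 (adjusted p up to 0.0593), and the Rn7sk call without any 1 of Sham mice 9, 10 and 11 and nPAB mice 5 to 8 (adjusted p up to 0.0956). Without mice 6 and 7 together they were at 0.106 and 0.119. The part of nuclear RNA content, of the LV chamber sum and of the atrial sum in the changes of this comparison was not tested.

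**Figure D4:**
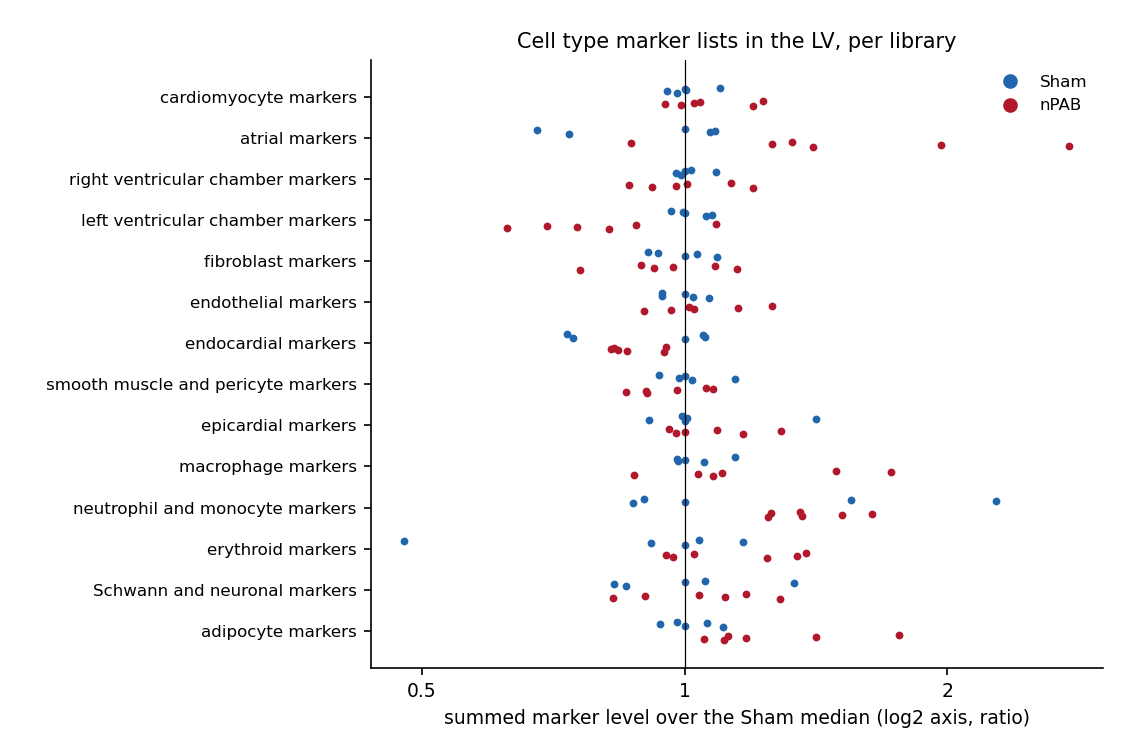
Each point is 1 LV library, placed by the summed level of a marker list divided by the Sham median of that list (ratio on a log2 axis). The lymphocyte and skeletal muscle lists, of low level, are not plotted. Sham and nPAB points overlap in every list shown; the highest nPAB library of the atrial list lies at 7878 normalised counts (1934 to 3099 in Sham) and the lowest of the LV chamber list at 57680 (88740 to 98920 in Sham).

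The RV of the same mice was set beside the LV to ask where the LV response differed. The tables were normalised separately, so the test used the difference RV minus LV within each mouse. In the RV, 22% of 13660 genes were called. The difference was called for 148 of 13364 genes, 1.11%, of which 78 were higher and 70 lower in the RV. Of the 1259 genes called in the LV and tested for the difference, 41 (3.26%) had a called difference, with the same LV libraries in both tests. Of these, 32 rose in the LV and more in the RV, 4 fell in the LV and more in the RV, 2 rose in the LV with a lower value in the RV, and 3 fell in the LV with a higher value in the RV. The other 107 called differences were in genes not called in the LV.

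Xirp2 and Cnn1 were among the largest differences. Xirp2 was at 1.52 in the LV and 3.87 in the RV (difference 2.36 ± 0.34 SE, adjusted p = 0.0127). Cnn1, a contractile protein of smooth muscle, was at 0.94 in the LV and 2.68 in the RV (difference 1.74, adjusted p = 0.0143). Bex1, Tceal7, Cyfip2 and Lrrc2, named for their size only, had differences of 1.51, 1.68, 1.48 and 1.60. At the other end stood Pla2g5 (-1.79), a secreted phospholipase, and Arhgap20 (-1.48), both with LV values near 0 (-0.19 and -0.10). Smaller differences with the higher value in the RV were called for the calcineurin regulator Rcan1 (0.90, adjusted p = 0.00368), the actin regulator Enah (0.57, adjusted p = 0.00063), Hspb6 (0.55, adjusted p = 0.00615), Hspb7 (0.31, adjusted p = 0.00295) and Actn2 (0.24, adjusted p = 0.0225). The RV effect was also larger for the glutamine synthetase Glul (0.87, adjusted p = 0.00237), Oxct1 (0.56, adjusted p = 0.00831), the kinase Pdk1 (0.55, adjusted p = 0.00358) and the glycolysis enzymes Aldoa (0.42) and Pgam2 (0.36, both adjusted p = 0.0305). Adra1b (-0.95, adjusted p = 0.0235) and Angpt1 (-1.17, adjusted p = 0.0249) fell further in the RV. For the 3 genes that lead the LV response the difference was not called: it was -0.24 ± 0.14 SE for Noct (adjusted p = 0.499), -0.18 ± 0.20 SE for Per1 (0.795) and -0.01 ± 0.08 SE for Pdk4 (0.982). Nor was it called for Nppa (3.13 ± 0.66 SE, adjusted p = 0.0691) and Acta1 (2.78 ± 0.73 SE, adjusted p = 0.148).

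In 3 named genes the LV changed and the RV value was near 0. Itgb1bp2 (melusin), a muscle protein that senses stretch through integrin, was at 0.42 in the LV and -0.10 in the RV (difference -0.52, adjusted p = 0.0123). The very low density lipoprotein receptor Vldlr was at -0.41 in the LV and -0.06 in the RV (difference 0.35, adjusted p = 0.0259), and the membrane protein Tmem171 at -1.05 and 0.00 (difference 1.05, adjusted p = 0.0398). These 3 calls were lost with the RV libraries of nPAB mice 6 and 7 exchanged. Adjusted p was then 0.0592 for Itgb1bp2, 0.066 for Vldlr and 0.321 for Tmem171. Without these 2 mice it was 0.00764, 0.00386 and 0.0102, in the same order. Genes with a called difference and no call in the LV included Corin, the protease that activates atrial natriuretic peptide, at -0.50 in the LV and -1.27 in the RV (difference -0.77, adjusted p = 8.27e-05). The clock repressor Bhlhe41 was at 0.02 and 0.62 (adjusted p = 0.00709), the potassium channel Kcnd2 at -0.06 and -1.56 (adjusted p = 0.00555), the T-type calcium channel Cacna1g at 0.20 and -1.24 (adjusted p = 0.0235), and Dbh, the enzyme that makes noradrenaline in nerve endings, at 0.12 and -1.52 (adjusted p = 0.00966). These calls rest on the pairing by mouse: of the 28 named differences, 28 were called without nPAB mice 6 and 7, 13 with the RV libraries of these 2 mice exchanged, 0 without the pairing and 0 without the variance trend and robust options. Leaving out 1 mouse at a time, 15 to 28 of them were called.

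**Figure D5:**
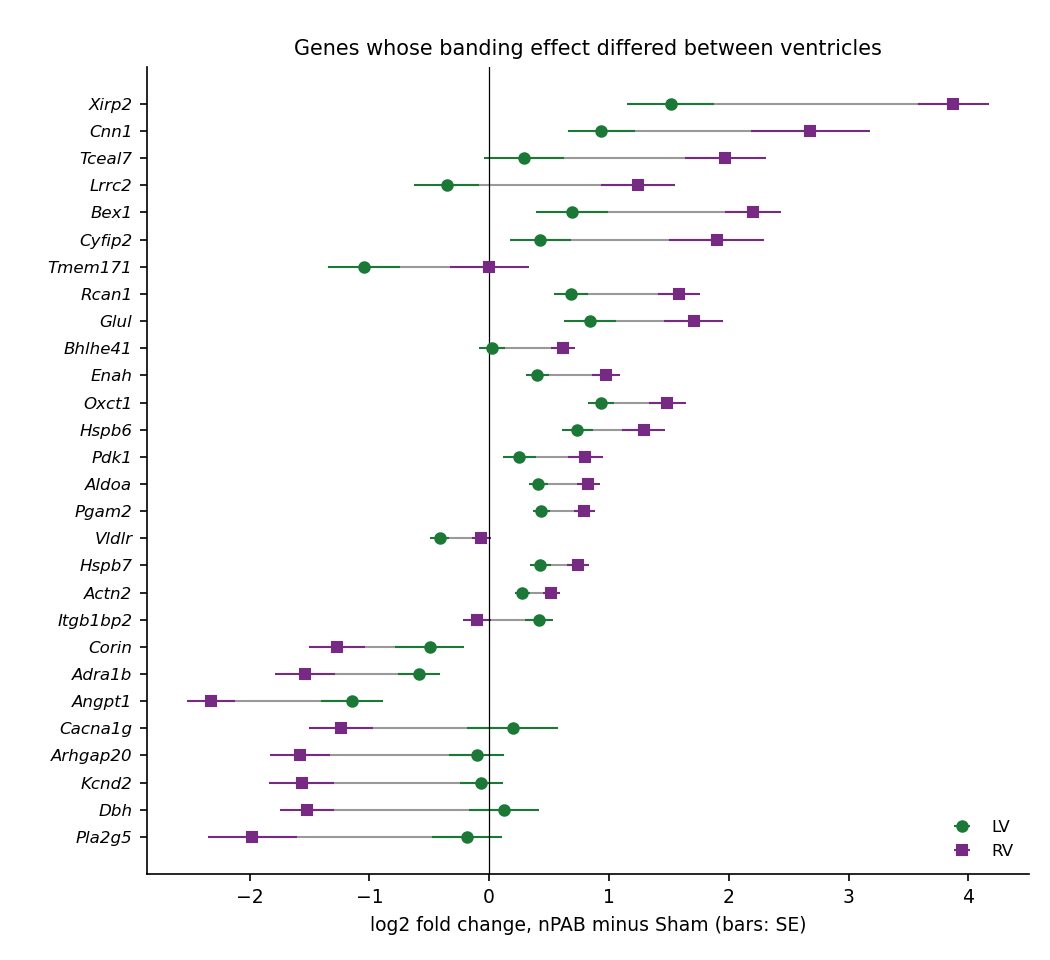
Circles are LV and squares RV log2 fold changes, nPAB minus Sham, for 28 genes with a called difference between ventricles, joined by a line; bars are SE (6 nPAB and 5 Sham mice). Xirp2 shows the largest difference, from 1.52 in the LV to 3.87 in the RV.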

How the data were processed

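The study sequenced bulk RNA of 11 LV and 11 RV samples, extracted with a Qiagen RNeasy Plus Mini kit and made into libraries with the Revelo High Sensitivity RNA kit, per the labels. The submitters' processing notes list cutadapt, featureCounts, DESeq2 and mm10; an aligner and version numbers were not given in the sources used here. What the authors deposited is a signal per gene in 1 table for each ventricle, in which reads were scaled by the DESeq2 size factor of the library, per the labels. In every library 100% of values came out as whole reads (tolerance 0.001), which gave the depth and the input of edgeR and DESeq2. Strand use in counting is not stated, which leaves overlapping genes, antisense genes and close copies uncertain.

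Symbols and coordinates came from GENCODE M21 (GRCm38), with 49326 of 49671 LV genes matched; promoter stretches came from RefSeq (GRCm38.p6). The test was limma 3.58.1 (R 4.3.3; eBayes, trend and robust both on), fitted to log2 of the signal plus 1. It took genes whose mean reached 10, was two-sided, and used Benjamini-Hochberg adjustment with a threshold of 0.05. This scale understates the change of low genes. It was run for LV nPAB against Sham, for the RV, and for RV minus LV per mouse, and was tested on simulated data. Alternatives changed the pseudocount, filter, scaling, variance options, library weights, sex term and block, used edgeR 4.0.16 and DESeq2 1.42.0, and left out mice. No 2 libraries of a group were alike within sampling noise. The precision of low levels is limited by counting error at these depths.

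Members and gene lists were chosen with earlier results of these data known. Named genes are Noct, Per1 and Pdk4, the 12 largest rises and falls among called genes that reached a mean of 50 and whose groups were apart (provisional symbols passed over), the 8 smallest adjusted p, up to 5 members of each list with the smallest p (all members of lists under 13), and the 6 largest differences between ventricles each way. Tsc22d3, Fkbp5, Cpt1a, Pfkp, Pgam2, Hif1a, Egln3, Adra1b, Hmgcs1, Glul, Enah, Rcan1, Aldoa, Tmem171, Itgb1bp2 and Pdk1 fall outside this rule and were chosen after their values were seen. Not every gene named by the rule is reported here. By the labels, LV and RV libraries with the same number come from the same mouse. The deviations of these pairs from their group means had correlations between 0.132 and 0.383 in the 9 mice with matching sex. For nPAB mouse 6 the value was 0.172 and for nPAB mouse 7 it was 0.0548. In the 9 mice each LV library correlated best with the RV library of its own mouse. The LV libraries of nPAB mice 6 and 7 both correlated best with the RV library labelled nPAB 6. Which library is misplaced was not tested.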

Additional observations from a re-analysis of the deposited data

Results flagged for a closer look

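In 10 of 244 groups (122 genes, Sham and nPAB apart) 1 LV library lay far from the rest of its group, by its gap to the nearest library over the range of the group. Chance gives this in about 1 in 20 groups, which would be 12.2 groups here, so the number is not above it. nPAB mouse 10 was that library 4 times: for Tent5b (lowest, 125.9 normalised counts, next 276.5), Akap5 (highest, 85.54), Id1 (highest, 672.8) and Cpt1a (lowest, 336.4, next 554.9). nPAB mouse 6 was highest for both load genes Acta1 (25090, next 8430) and Xirp2 (30870, next 13670). nPAB mouse 5 was highest for Scd4 (298.1, next 91.9) and nPAB mouse 11 for Mpc1 (713.4). In Sham, mouse 10 was lowest for Cebpd (43.49) and mouse 9 highest for Adra1a (70.12, next 20.44).

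The banding effect differed between ventricles for 28 named genes, by the test of the difference itself (log2, RV minus LV; limma with Benjamini-Hochberg adjustment; 11 mice). Positive differences were those of Xirp2 (2.36), Cnn1 (1.74), Tceal7 (1.68), Lrrc2 (1.60), Bex1 (1.51), Cyfip2 (1.48), Tmem171 (1.05), Rcan1 (0.90), Glul (0.87), the clock repressor Bhlhe41 (0.59), Enah (0.57), Oxct1 (0.56), Hspb6 (0.55), Pdk1 (0.55), Aldoa (0.42), Pgam2 (0.36), the lipoprotein receptor Vldlr (0.35), Hspb7 (0.31) and Actn2 (0.24). Negative differences were those of Pla2g5 (-1.79), Dbh (-1.64), Kcnd2 (-1.50), Arhgap20 (-1.48), Cacna1g (-1.43), Angpt1 (-1.17), Adra1b (-0.95), Corin (-0.77) and the stretch sensor Itgb1bp2 (-0.52). Adjusted p ran from 8.27e-05 for Corin to 0.0437 for Lrrc2.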

How the results depend on the processing

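Of the 118 named genes called in the LV, all kept their direction in every alternative in which they were fitted, 104 stayed called when any 1 mouse was left out, and 96 without nPAB mice 6 and 7. Genes called in the LV numbered 1260, against 739 without the variance trend and robust options and 668 without mice 6 and 7; the other alternatives except the block gave 934 to 1680. Leaving out 1 mouse gave 841 to 1290 in the LV, 2399 to 3015 in the RV (2999 with all) and 80 to 393 for the difference between ventricles (148 with all).

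The difference gave 1 gene without the trend and robust options, 261 with library weights, 249 with DESeq2, 501 without mice 6 and 7, 5 with no replicate block, that is without pairing by mouse, and 63 with the RV libraries of mice 6 and 7 exchanged, a setting chosen after seeing the data. Leaving out nPAB mouse 7 gave 393, and leaving out Sham mouse 9, 10, 12 or 13 or nPAB mouse 5 gave 87, 93, 93, 80 and 84. In all these settings the cause was not tested. A replicate block within a ventricle left 29 calls in the LV and 262 in the RV. Sham and nPAB share only the numbers 10 and 11, on different animals whose deviations correlated at -0.029 and -0.0549 in the LV, so the numbers do not pair them. At 5 against 6 libraries of 7.11 to 11.3 M reads the median SE of a log2 fold change was 0.175 in the LV and 0.212 for the difference, which limits small changes.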
